A study of Homo sapiens with 4 samples.

Results

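Circular RNA was examined from 56 host genes that encode chromatin remodelers and histone modifiers. A row of the deposited count table, which is 1 circular RNA defined by its back-splice positions, was assigned to a member when the row named that gene and was not antisense. At least 1 count was found for all 56 members, of 14794 host genes with a count in the series. The members held 3136 circles with a count, of 190152 in the series, and 29262 of 1702290 counts, which is 1.72%. A circle that named a member together with another gene was kept, and such rows held 14% of the members' counts.

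Chromatin remodelers use ATP to slide, evict or exchange nucleosomes, while histone modifiers add or remove methyl and acetyl groups on histone tails and so mark active or silent chromatin. Many of these genes are long and have many exons. A circular RNA forms when the spliceosome joins the end of a downstream exon back to the start of an upstream one, and it is counted here apart from the linear messenger RNA of the same gene. HNRNPL is an RNA-binding protein that regulates splicing and is known to bind CA-rich RNA.

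The 4 libraries came from MDA-MB-468, an established human triple-negative breast cancer cell line. Both groups were a radioresistant derivative that had received 50 Gy in total, so that radioresistance is shared by controls and knockdowns and no unirradiated group was compared. The controls carried a control hairpin (shCtrl) and the knockdowns carried a stable hairpin against HNRNPL (shHNRNPL), for which the extraction protocol names a single construct. Each group had 2 biological replicates, per the series' design text, and nothing in the labels says whether a line was a pool or a clone. The comparison asks which circular RNAs depend on HNRNPL. HNRNPL itself was not a host gene in the rows used, so the knockdown rests on the labels. In RNA from whole cultures, fewer cells that make a circle and fewer copies per cell cannot be told apart.

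Library totals were 472428 and 556578 counts in controls 1 and 2, and 282737 and 390547 in knockdowns 1 and 2. Counts below are listed in that order of libraries, and levels are counts per 100000 library counts. A count of 0 allows up to 3 counts, which is between 0.539 and 1.06 per 100000 depending on the library. The cDNA was amplified without molecular identifiers, so counting intervals and this limit cover counting error only. Control 1 stood apart, with 17.6% of its member counts in circles typed as intronic, against 9.83% to 12.5% in the other libraries, and 407 antisense counts at the members' loci, against 69 to 172. The intronic share was not limited to members, since over all counts it was 19.7% in control 1 and 9.93% to 10.6% in the others. Over host genes the controls varied with a biological coefficient of variation of 0.646, and the knockdowns with 0.0961. Of 10 marker genes of breast epithelial lines, 7 had a circular count, summing to 131, 87.3, 60.5 and 56.8 per 100000, while keratins KRT8, KRT18 and KRT19 were at 0. None of 8 markers of immune, fibroblast and endothelial cells had a count, and the part of this marker difference in the results was not tested.

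The members' share of each library was 1.65%, 1.87%, 1.67% and 1.61%. It averaged 1.76% ± 0.153 (SD, n = 2) in the controls and 1.64% ± 0.0435 (n = 2) in the knockdowns, and the groups overlapped. Counts were uneven among members. The 10 members with at least 1000 counts were BRWD1, CHD9, ASH1L, NSD1, NSD2, KMT2C, BPTF, SETD2, KMT2E and SMARCC1, and they held 63.6% of the members' counts. At the other end, KMT2D, SMARCC2 and SRCAP had fewer than 10 counts over the 4 libraries and were not tested, which left 53 tested members.

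**Figure D1:**
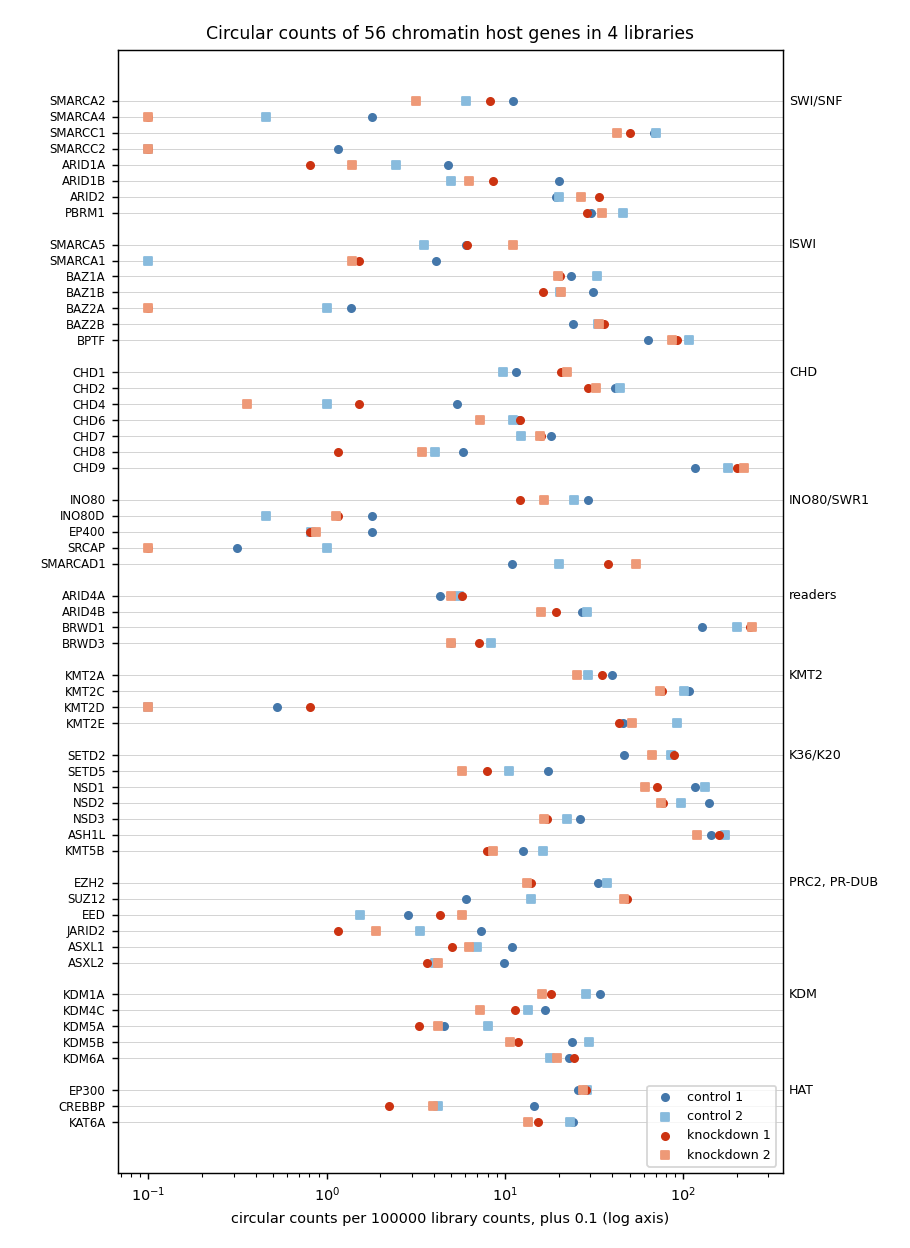
Each row is 1 of 56 host genes, grouped by role (SWI/SNF, ISWI, CHD, INO80/SWR1, readers, KMT2 family, H3K36 and H4K20 methyltransferases with SETD5, PRC2 and PR-DUB, demethylases KDM, acetyltransferases HAT), and each point is 1 library's circular counts per 100000 library counts plus 0.1 on a log axis. The levels are not divided by gene length; SUZ12, SMARCAD1 and CHD1 have both knockdown points to the right of both control points, and EZH2 and KDM5B have both to the left.

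At the level of host genes, 8379 genes were compared by the quasi-likelihood test of edgeR with TMM scaling and Benjamini-Hochberg adjustment. No member was called at a threshold of 0.05 on the adjusted p, where the background was 0.442% called. At an unadjusted p under 0.05 in the same test, 6 members were higher in the knockdowns (SUZ12, SMARCAD1, CHD1, ARID2, EED and SMARCA5), against a background of 7.58%, and 2 were lower (EZH2 and KDM5B), against 6.19%. DESeq2 and limma voom with group weights each called 2 members at an adjusted p of 0.05, SUZ12 and SMARCAD1. The edgeR count of members called was 12 without control 1, 22 without control 2 and 0 without either knockdown, while 1660, 2794, 0 and 0 host genes were called in all. In such fits the spread comes from the group that keeps 2 libraries. The log2 fold change was above 0 for 21 tested members and below 0 for 32, with a median of -0.22, against -0.26 over all host genes tested. Without TMM, scaled by library totals alone, these medians were -0.54 and -0.58, and 16 members were above 0 and 37 below. Both knockdowns lay above both controls for 9 of 53 tested members (17%, background 15.3%) and below them for 24 (45.3%, background 36.7%).

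**Figure D2:**
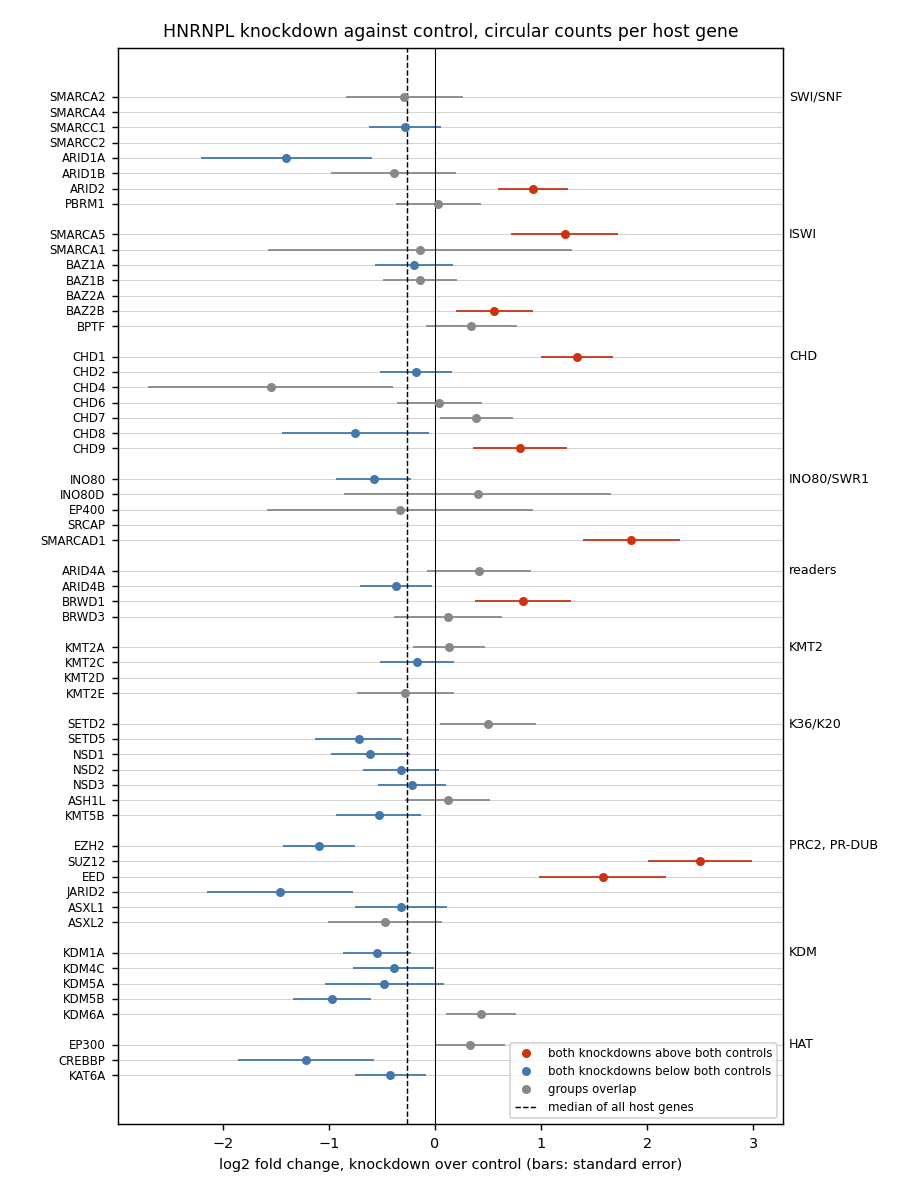
Points are log2 fold changes of knockdown over control from edgeR with TMM scaling for the tested host genes, grouped by role, with bars of 1 standard error, and the dashed line is the median of all host genes tested, -0.26. SUZ12 at 2.50 lies farthest to the right; rows without a point had under 10 counts or were at 0 in both knockdowns.

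Members of Polycomb repressive complex 2 (PRC2), which methylates histone H3 lysine 27, had values in both directions. SUZ12, a core subunit needed for the complex to be stable, had 28, 77, 136 and 180 circular counts. That is 9.88 ± 5.59 per 100000 (SD, n = 2) in the controls and 47.1 ± 1.42 (n = 2) in the knockdowns, a 4.77-fold ratio, and the groups did not overlap. The edgeR log2 fold change was 2.50 ± 0.49 (SE), with an unadjusted p of 0.000922 and an adjusted p of 0.0825. The adjusted p of SUZ12 was 0.000847 with DESeq2 and 2.92e-06 with limma voom, and the log2 fold change was 2.51 and 2.50 without knockdown 1 or 2 (edgeR adjusted p = 0.919 and 0.911). Without control 1 it was 1.93 and without control 2 it was 3.55 (edgeR adjusted p = 8.6e-15 and 2.67e-36). All 9 SUZ12 circles with at least 10 counts were above 0 on the log2 scale, and in each the knockdowns lay above the controls. These circles share their host, so they are not separate evidence. Here and below, circles were scaled in a separate fit, so log2 fold changes of circles and hosts are not on one scale. The leading one, chr17:31940286-31996877 with 14 exons and 1600 nt, had 4, 30, 25 and 31 counts, and chr17:31940286-31995762 with 13 exons had 0, 3, 15 and 8.

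EED, which binds methylated lysine 27 and activates the complex, had few counts, 13, 8, 12 and 22. Its levels were 2.09 ± 0.929 per 100000 in the controls and 4.94 ± 0.982 in the knockdowns (n = 2 each), with no overlap, and its edgeR log2 fold change was 1.58 ± 0.60 (unadjusted p = 0.0303, adjusted p = 0.313). The EED counts were spread over 18 circles, and none of these reached 10 counts.

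EZH2, the catalytic subunit, had 157, 206, 39 and 51 counts. Its levels were 35.1 ± 2.67 per 100000 in the controls and 13.4 ± 0.52 in the knockdowns (n = 2 each), so that the groups were well apart. The edgeR log2 fold change was -1.09 ± 0.34, with an unadjusted p of 0.0126 and an adjusted p of 0.234. All 7 tested EZH2 circles were below 0. Most EZH2 counts (60.5%) came from circles that began at the acceptor 148847305 on chromosome 7, including chr7:148817877-148847305 with 9 exons and 1232 nt, which had 11, 41, 2 and 2 counts. JARID2, an accessory subunit, had 34, 18, 3 and 7 counts, again with no overlap and lower in the knockdowns, and an edgeR log2 fold change of -1.46 with an unadjusted p of 0.0671. With exon circles alone the log2 fold change of JARID2 was -0.04 (edgeR adjusted p = 0.992), and circles typed as intronic are the class in which control 1 stood apart; their part in the result was not tested further. ASXL1 and ASXL2 are partners of the deubiquitinase that removes ubiquitin from histone H2A, and had log2 fold changes of -0.32 and -0.47. Over the 6 genes of this group, 2 were above 0 and 4 below, and the summed level was 69.6, 66.3, 75.7 and 76.8 per 100000.

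**Figure D3:**
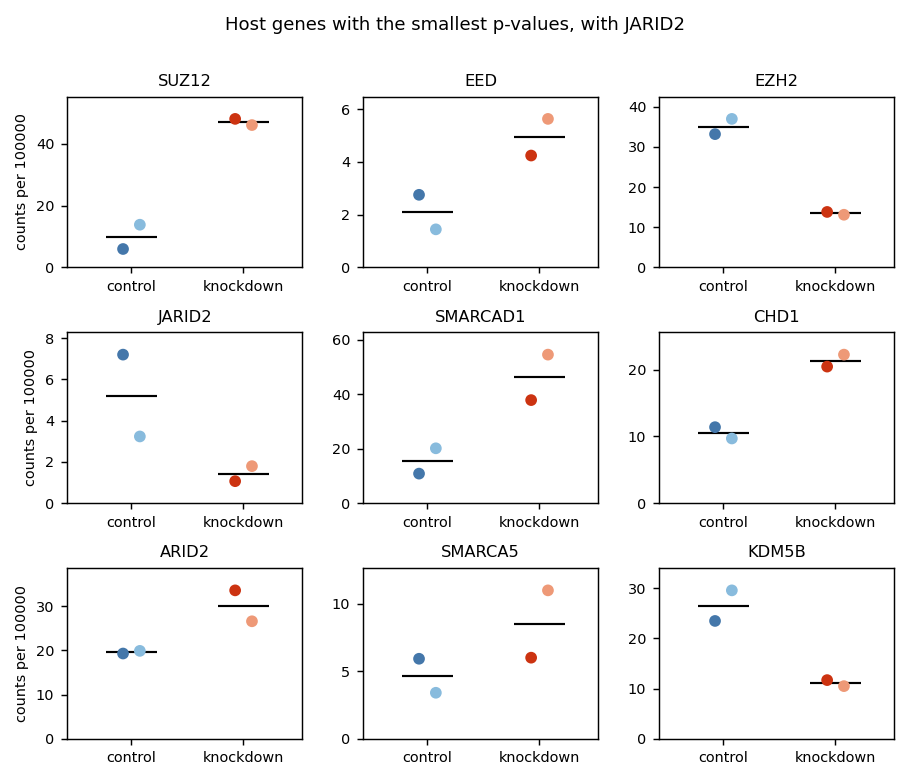
Each panel is 1 host gene, points are the libraries' circular counts per 100000 (axes start at 0 and differ between panels), and lines are group means of 2 libraries. The panels are the 8 members with an unadjusted p under 0.05 in edgeR, plus JARID2; SUZ12 is at 9.88 and 47.1 and EZH2 at 35.1 and 13.4 on average.

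Among 7 CHD remodelers and 4 tested genes of the INO80, SWR1 and SMARCAD1 group, 1 each had an unadjusted p under 0.05 in edgeR, CHD1 and SMARCAD1. SMARCAD1, a remodeler that acts in heterochromatin and at DNA breaks, had 51, 112, 107 and 213 counts, or 15.5 ± 6.6 per 100000 in the controls and 46.2 ± 11.8 in the knockdowns (n = 2 each). The groups did not overlap, although knockdown 2 was higher than knockdown 1. Its edgeR log2 fold change was 1.85 ± 0.46 (unadjusted p = 0.00376, adjusted p = 0.157), with 7 of 8 tested circles above 0. The circle chr4:94264707-94285069, with 14 exons and 1738 nt, had 2, 7, 26 and 47 counts and the second smallest p of all member circles (log2 fold change 3.57 ± 0.55, edgeR adjusted p = 0.0984).

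CHD1, a remodeler that binds trimethylated histone H3 lysine 4 at transcribed genes, had 54, 54, 58 and 87 counts. Because the knockdown libraries were smaller, this is 10.6 ± 1.22 against 21.4 ± 1.25 per 100000 (n = 2 each), with an edgeR log2 fold change of 1.34 ± 0.34 (unadjusted p = 0.00409, adjusted p = 0.162). CHD1 counts were spread over 69 circles, of which the leading one held 6.32%. CHD9 had 548, 984, 563 and 859 counts, a log2 fold change of 0.80 ± 0.44 and an edgeR adjusted p of 0.453, and both knockdowns were above both controls. The fold change was 0.41 without control 1 and 1.42 without control 2. CHD2 was at 42.7 ± 2.07 and 30.6 ± 2.31 per 100000 without overlap, CHD8 at 4.83 ± 1.25 and 2.19 ± 1.6, while CHD6 and CHD7 overlapped between groups. The edgeR log2 fold changes of CHD2 and CHD8 were -0.18 ± 0.34 and -0.75 ± 0.69 (unadjusted p = 0.617 and 0.307). CHD4, the ATPase of the NuRD complex, had 25, 5, 4 and 1 counts, all in rows that also named another gene. INO80, the ATPase of the complex of that name, had 137, 136, 34 and 64 counts, with no overlap and a log2 fold change of -0.58 ± 0.35 (edgeR adjusted p = 0.475). EP400 and INO80D had 17 counts each over all libraries and SRCAP had 6.

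Among SWI/SNF subunits, which form the BAF and PBAF remodeling complexes, ARID2 was the member with the smallest p. ARID2, a PBAF subunit, had 91, 111, 95 and 104 counts, which is 19.6 ± 0.482 against 30.1 ± 4.93 per 100000 (n = 2 each), with no overlap and an edgeR log2 fold change of 0.92 ± 0.33 (unadjusted p = 0.0246, adjusted p = 0.295). Its leading circle, chr12:45836589-45860949 with 10 exons and 4217 nt, held 38.2% of ARID2 counts and had 25, 41, 44 and 43. PBRM1, another subunit that marks PBAF, overlapped between groups at 38.1 ± 11.1 and 31.9 ± 4.55 per 100000. SMARCC1, a core scaffold subunit, had 324, 390, 142 and 165 counts and lay lower in both knockdowns, with a log2 fold change of -0.28 ± 0.34 that was -0.01 without control 2. The BAF subunit ARID1A had 22, 13, 2 and 5 counts, and its paralog ARID1B had 95, 27, 24 and 24. Control 1 thus held most ARID1B counts, and the other 3 libraries were alike in number. The ATPase SMARCA4 had 8 and 2 counts in the controls and 0 in both knockdowns, and its paralog SMARCA2 overlapped. For SMARCA4, control 2 was at 0.359 per 100000. The limit for a count of 0 was 1.06 and 0.768 in knockdowns 1 and 2, so no reduction against control 2 can be stated.

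In the ISWI class, SMARCA5, the ATPase that spaces nucleosomes, had 28, 19, 17 and 43 counts, with a log2 fold change of 1.22 ± 0.50 (edgeR unadjusted p = 0.0387, adjusted p = 0.334). Its levels were 4.67 ± 1.78 and 8.51 ± 3.53 per 100000 (n = 2 each), and knockdown 1 was barely above control 1. The leading SMARCA5 circle, chr4:143543509-143543972 with 2 exons and 269 nt, had 0, 1, 1 and 11 counts, so that knockdown 2 alone held nearly all of it, and the log2 fold change of the host was 0.67 without knockdown 2. BPTF, the large subunit of the NURF complex that reads histone marks, had 300, 594, 261 and 338 counts and overlapped between groups. BAZ2B, a bromodomain partner of ISWI, was at 28.6 ± 6.31 and 34.6 ± 1.54 per 100000 with no overlap, while BAZ1A was at 28 ± 6.66 and 19.9 ± 0.314. Their edgeR log2 fold changes were 0.56 ± 0.36 and -0.20 ± 0.37 (unadjusted p = 0.162 and 0.594). A single BAZ1A circle, chr14:34783762-34802988 with 9 exons, had 28, 34, 7 and 6 counts (log2 fold change -1.66 ± 0.50, edgeR adjusted p = 0.243). BAZ2A had 6 and 5 counts in the controls and 0 in both knockdowns. Its level in control 2, 0.898 per 100000, lay below the limit of 1.06 for a count of 0 in knockdown 1.

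The writers of histone H3 lysine 36 and histone H4 lysine 20 methylation, with SETD5, were the largest group by counts, 27.1% of the members' total. In 5 of these 7 genes (NSD1, NSD2, NSD3, KMT5B and SETD5) both knockdowns lay below both controls, beside 36.7% of all host genes, and none was called in edgeR (smallest adjusted p 0.456). NSD1 was at an unadjusted p of 0.137 and no gene of the group was under 0.05. NSD1, which places dimethylation at lysine 36, had 547, 734, 201 and 239 counts, or 124 ± 11.4 and 66.1 ± 7 per 100000 (n = 2 each), and a log2 fold change of -0.61 ± 0.37, which was -0.25 without control 2. All 9 tested NSD1 circles were below 0 in the separate fit of circles. NSD2, a related enzyme, had 656, 542, 216 and 292 counts and a log2 fold change of -0.32 ± 0.36. SETD2, the trimethylase of lysine 36, had 219, 477, 250 and 261 counts and overlapped, with 85.7 per 100000 in control 2 above 66.8 in knockdown 2. Its log2 fold change of 0.50 was 0.01 without control 1 and 1.3 without control 2. Its leading circle, chr3:47113876-47126663, was long for 4 exons, with 4644 nt, and had 24, 101, 65 and 51 counts. ASH1L, another writer of lysine 36 dimethylation, had 674, 953, 450 and 470 counts and a log2 fold change of 0.12 ± 0.40, which became -0.17 under library-size scaling, and its groups overlapped.

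In the family of histone H3 lysine 4 methyltransferases, KMT2C had 505, 564, 215 and 288 counts, with both knockdowns below both controls and a log2 fold change of -0.17 ± 0.35. Its leading circle, chr7:152220523-152238826 with 9 exons and 1180 nt, had 127, 117, 40 and 63 counts. KMT2E, a family member without known methyltransferase activity of its own, had 217, 515, 123 and 201 counts and overlapped, as did KMT2A. KMT2D, the close paralog of KMT2C, had 2 counts in control 1, 2 in knockdown 1 and 0 in the others. The log2 fold changes of KMT2C and KMT2E were 0.05 and 0.62 when control 2 was left out, so their direction depended on that library.

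Of 5 histone demethylases, 4 (KDM1A, KDM4C, KDM5A and KDM5B) were lower in both knockdowns than in both controls, beside 36.7% of all host genes. KDM5B, which removes methyl groups from histone H3 lysine 4, had 111, 165, 33 and 41 counts, or 26.6 ± 4.35 and 11.1 ± 0.83 per 100000 (n = 2 each), and an edgeR log2 fold change of -0.97 ± 0.37 (unadjusted p = 0.0289, adjusted p = 0.309), which was -0.52 without control 2. KDM1A, an amine-oxidase demethylase of the same lysine, had 160, 157, 51 and 63 counts. KDM6A, which removes methylation from lysine 27, overlapped at 20.2 ± 3.44 and 21.9 ± 3.5 per 100000. Of the acetyltransferases, CREBBP had 68, 23, 6 and 15 counts and a log2 fold change of -1.22 (unadjusted p = 0.0953 in edgeR), which was -0.25 without control 1. KAT6A was at 23.6 ± 0.801 and 14.3 ± 1.34 per 100000 without overlap, with an edgeR log2 fold change of -0.42 ± 0.33 (unadjusted p = 0.242). EP300, the paralog of CREBBP, overlapped at 27.2 ± 2.22 and 27.8 ± 0.635.

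The readers and co-repressor partners were led by BRWD1, a bromodomain and WD-repeat protein, with 607, 1108, 671 and 953 counts. Its level was 164 ± 49.9 per 100000 in the controls and 241 ± 4.73 in the knockdowns (n = 2 each), with no overlap, a log2 fold change of 0.83 ± 0.45 and an edgeR adjusted p of 0.439. That separation rested on rows that also named another gene. In rows that named BRWD1 alone the levels were 82.3, 114, 94.8 and 100 per 100000 and the groups overlapped, with a log2 fold change of 0.28 (edgeR adjusted p = 0.813). The fold change over all rows was 0.44 without control 1 and 1.47 without control 2. ARID4B, a partner of the SIN3 co-repressor, was at 27.8 ± 1.32 and 17.5 ± 2.28 per 100000, also without overlap, while ARID4A and BRWD3 overlapped. The edgeR log2 fold change of ARID4B was -0.37 ± 0.34 (unadjusted p = 0.299).

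A list of other chromatin regulators, none of them a member, was read from the same fit. Of 187 genes listed, 111 were tested. None passed the adjusted threshold in edgeR (background 0.442%). At an unadjusted p under 0.05, 9 were higher and 3 lower, where the background was 7.58% and 6.19%, and the median log2 fold change was -0.24.

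Single circles were tested for 461 member circles with at least 10 counts, which left out circles holding 28% of the members' counts. None passed an adjusted p of 0.05 in edgeR, with a background of 0% over 21576 circles. At an unadjusted p under 0.05, 28 member circles were higher, where the background was 9.29%, and 18 were lower, where it was 4.26%; both directions together made 9.98% of member circles and 13.6% of all circles. DESeq2 called 10 member circles and limma voom 2, and edgeR called 75 without control 1 and 110 without control 2. The median log2 fold change was -0.29 for member circles and -0.41 for all circles. Without TMM these medians were -0.23 and -0.36, so that TMM moved circles down, while it moved host genes up.

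The most abundant member circles were mostly short runs of exons. CHD9 circle chr16:53141179-53157541 had 216, 400, 233 and 359 counts, 40.9% of its host. It is typed as intronic in the deposited table, with a length of 1712 nt. CHD9 circle chr16:53155926-53157541, a single exon of 1616 nt that shares the same donor, had 107, 228, 110 and 186 counts. NSD1 circle chr5:177209636-177212195, a single exon of 2560 nt, had 284, 366, 118 and 134 counts and held 52.4% of its host. The 3-exon NSD1 circle chr5:177191884-177212195 had 115, 214, 43 and 52. Both NSD1 circles were lower in both knockdowns, with log2 fold changes of -0.79 ± 0.32 and -1.17 ± 0.34 and edgeR adjusted p-values of 0.363 and 0.227. NSD2 circle chr4:1900626-1904378 with 2 exons and 789 nt had 192, 188, 52 and 73 counts, and BPTF circle chr17:67891844-67894165 with 3 exons and 679 nt had 82, 137, 47 and 67.

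Back-splice sites were shared by many circles of a host. The upstream end of a circle on the transcript is its acceptor and the downstream end its donor. In NSD2, 85.9% of counts used the acceptor 1900626 on chromosome 4, through 14 circles, and in NSD1, 80.4% used the donor 177212195 on chromosome 5. In CHD9, 73.5% used the donor 53157541 on chromosome 16, at 68.6%, 73.6%, 73.7% and 76.5% in the 4 libraries. Over the 40 members with at least 100 counts, the leading acceptor held a median of 32.2% of counts and the leading donor 29.3%, and over all 2874 such hosts these were 42.2% and 37.8%.

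The use of circles within a host was tested for 39 members with at least 2 circles of 10 or more counts, among 2327 genes, with edgeR's diffSpliceDGE F test. It asks whether a host's circles changed relative to one another. Circles that named several genes were left out of this fit. Among them were the leading BRWD1 circle (449 counts) and ASH1L circles whose donor lies 168 kb from the gene start. The shares of sites given below use all rows. BRWD1 (28 circles, adjusted p = 0.000409) and ASH1L (16 circles, adjusted p = 0.00512) passed the adjusted threshold, which is 2 of 39 members beside a background of 3.95%. At an unadjusted p under 0.05 there were 6 members, or 15.4%, against 17.9% of all genes. A fit without 1 library takes its spread from the group that keeps 2, so it says little about the stability of a single gene. Without either knockdown the loosely matched controls set the spread, and no member was called (edgeR adjusted p of 0.811 and 0.954 for BRWD1 and of 0.974 and 0.954 for ASH1L). Without control 1 or control 2 the closely matched knockdowns set it, and 21 and 19 members were called.

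In BRWD1 the change followed the position of the acceptor along the gene. Among acceptors with at least 40 counts, those at 22.6, 24.8, 46.7 and 62.5 kb from the gene start held smaller shares in both knockdowns than in both controls, and those at 70.3, 82.6, 91.8, 103, 106 and 109 kb held larger ones. The groups overlapped at 41 and 96 kb. The acceptor at 22.6 kb (chr21, 39298582) held 35.4% and 37.5% of BRWD1 counts in the controls, against 17.7% and 16.1% in the knockdowns. At 46.7 kb (chr21, 39274472) the shares were 16.6%, 15.6%, 6.71% and 6.51%. The acceptor at 91.8 kb (chr21, 39229436) went the other way, with 3.13%, 10%, 35.3% and 32.9%. At 109 kb (chr21, 39212707) they were 0%, 0.722%, 7% and 7.66%. In each of these 4 sites the groups did not overlap.

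Divided at 65 kb, a position chosen after the values were seen, circles with an upstream acceptor had 489, 786, 220 and 287 counts, or 80.6%, 70.9%, 32.8% and 30.1% of the host. Circles with a downstream acceptor had 118, 322, 451 and 666 counts, and were at 41.4 ± 23.2 per 100000 in the controls and 165 ± 7.79 in the knockdowns, a 3.98-fold ratio, while the upstream ones were at 122 ± 26.7 and 75.6 ± 3.06 (n = 2 each). Of the circles with at least 10 counts, 28 of 33 with an upstream acceptor were below 0 on the log2 scale, and 22 of 28 with a downstream acceptor were above 0. These circles overlap and share sites, so their number is not a number of replicates. Of the BRWD1 counts, 49.7% lay in rows that also named an overlapping gene, BRWD1-IT1 or METTL21AP1. In rows that named BRWD1 alone, upstream circles had 324, 495, 139 and 210 counts and downstream circles 65, 137, 129 and 181, and neither set overlapped between groups per 100000. In these rows the downstream level was 19.2 ± 7.68 in the controls and 46 ± 0.509 in the knockdowns, a 2.4-fold ratio. The upstream level was 78.8 ± 14.4 and 51.5 ± 3.26 (n = 2 each).

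On the donor side, sites at 62.7, 103, 111, 115, 119 and 125 kb held larger shares in both knockdowns than in both controls. The donor at 119 kb had 2, 2, 25 and 17 counts, and the one with the most counts was at 115 kb. The donor at 115 kb (chr21, 39206108) had 6, 65, 203 and 325 counts, which is 0.988% and 5.87% of BRWD1 counts in the controls, against 30.3% and 34.1% in the knockdowns. The donor at 73.5 kb (chr21, 39247701) had 154, 222, 65 and 80 counts, or 25.4%, 20%, 9.69% and 8.39%. Smaller shares in both knockdowns were also held by donors at 27.4, 42.5, 51.3, 56.8, 65.6, 89, 91.9 and 121 kb, and barely at 96.8 kb. Downstream donors thus went both ways in share. At 89 kb the shares were 4.61%, 4.51%, 3.13% and 2.83%, and at 121 kb 3.95%, 4.24%, 2.68% and 1.68%. The gain in share at 103 kb was small, with 2.14%, 2.26%, 2.53% and 2.31%. These are shares of a host total that was itself higher in both knockdowns. As levels, the groups overlapped at 89 kb (7.46 in controls and 7.17 in knockdowns on average), and also at 27.4, 42.5, 56.8 and 121 kb. At 96.8 kb the level was higher in both knockdowns (17.9 and 23.8 on average). Levels were lower in both knockdowns at 51.3, 65.6, 73.5 and 91.9 kb. The leading BRWD1 circle, chr21:39206108-39229436 with 12 exons and 1364 nt, joins the donor at 115 kb to the acceptor at 91.8 kb and had 5, 50, 159 and 235 counts (log2 fold change 3.56 ± 0.77, edgeR unadjusted p = 0.00393, adjusted p = 0.147). The 2 controls differed widely on it, and both stayed well below the knockdowns.

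The shorter circle chr21:39206108-39212707, with 4 exons and 506 nt, uses the same donor and had 0, 3, 33 and 67 counts. It had the smallest p of all member circles in edgeR (log2 fold change 5.51 ± 0.79, adjusted p = 0.0949), and a ratio of 50.9 with a 95% counting interval from 16.9 to 251. Further downstream circles were chr21:39224408-39238573, with 8 exons and 7, 9, 25 and 37 counts, and chr21:39209995-39215362, with 5 exons and 0, 3, 12 and 22. On the lower side, chr21:39229312-39274472 with 14 exons had 17, 22, 2 and 3 counts (log2 fold change -2.36 ± 0.60, edgeR adjusted p = 0.184). Of the 33 circles with an upstream acceptor, 5 were above 0. The highest of these was chr21:39258487-39274472 with 6 exons, which had 1, 5, 14 and 19 counts (log2 fold change 3.03 ± 0.67).

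**Figure D4:**
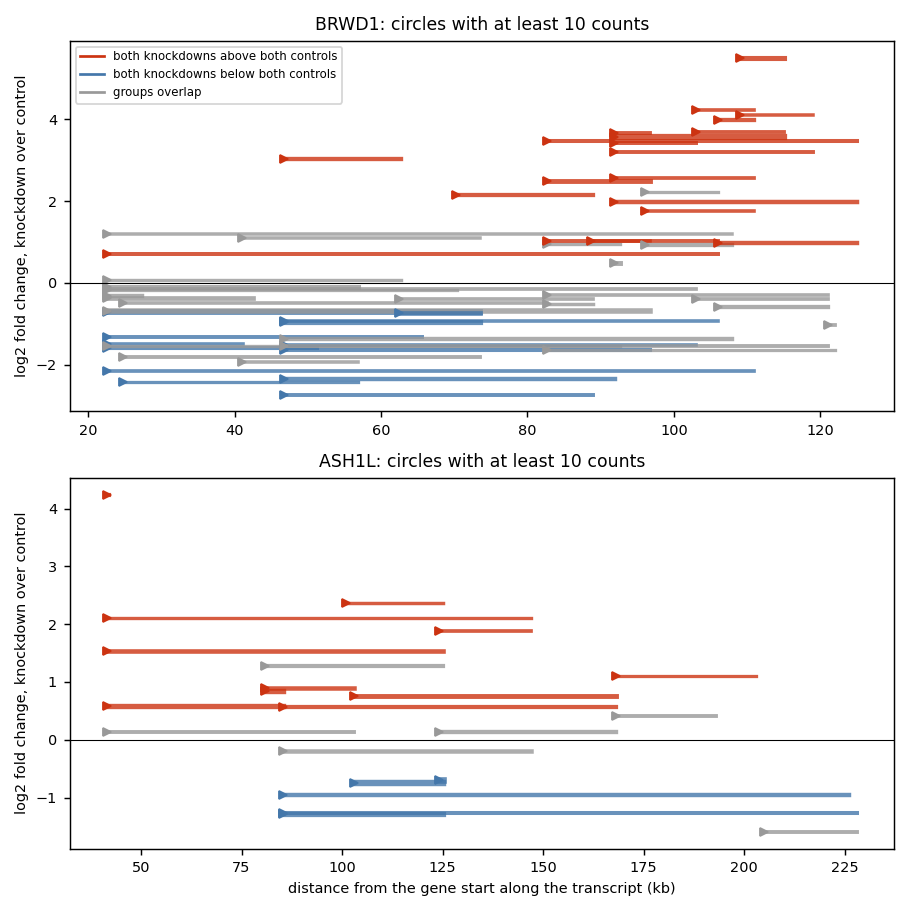
Lines are circles with at least 10 counts, drawn from acceptor (arrowhead) to donor as distance from the gene start in kb, at the height of their edgeR log2 fold change of knockdown over control; thicker lines have more counts, and 2 BRWD1 circles at 0 in both knockdowns are not drawn. In BRWD1 most circles that start beyond 65 kb lie above 0 (22 of 28) and most that start before it lie below; in ASH1L the 5 circles that start at 41.6 kb lie above 0.

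ASH1L showed a change in use without a clear change in its sum. In the controls 64% and 71% of its counts used the donor at 125 kb (chr1, 155438327), and in the knockdowns 52.2% and 51.7% did. The acceptor nearest the gene start, at 41.6 kb (chr1, 155521618), held 7.59% and 6.19% of counts in the controls, against 17.6% and 17.2% in the knockdowns. That is 10.7 ± 0.138 against 24.3 ± 5.09 per 100000 (n = 2 each), a 2.28-fold ratio. All 5 tested circles from this acceptor were above 0, and in 4 of them both knockdowns lay above both controls. The lowest was at 0.13 ± 0.91 on the log2 scale. These circles share the acceptor, so they are not separate evidence. The acceptor at 80.8 kb (chr1, 155482449) also held more, at 8.63%, 4.51%, 16.2% and 12.3%, and the acceptor at 124 kb (chr1, 155439068) less, at 34.4%, 37.4%, 26.9% and 28.1%. No overlap of the groups was seen at these sites.

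Larger shares in the knockdowns were not limited to sites near the gene start, since the donors at 147 kb (2.08%, 3.25%, 4.22% and 4.89%) and 168 kb (4.17%, 5.25%, 8.67% and 8.51%) and the acceptor at 168 kb (1.34%, 1.78%, 2.89% and 2.34%) also separated the groups. The leading circle chr1:155438327-155439068, a single exon of 742 nt, had 216, 325, 105 and 114 counts, and chr1:155438327-155459898 with 2 exons had 149, 266, 80 and 78. Both were lower in both knockdowns, as was chr1:155438327-155477958 with 37, 61, 10 and 17 counts. The single-exon circle chr1:155521100-155521618 of 519 nt had 0, 2, 8 and 21 counts, a ratio of 22.2 with a 95% counting interval from 5.61 to 192. A single very long exon, chr1:155477886-155482449 with 4564 nt, was circularised alone with 36, 31, 46 and 36 counts. The 4-exon circle chr1:155438327-155521618, of 5931 nt, had 9, 10, 19 and 18.

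**Figure D5:**
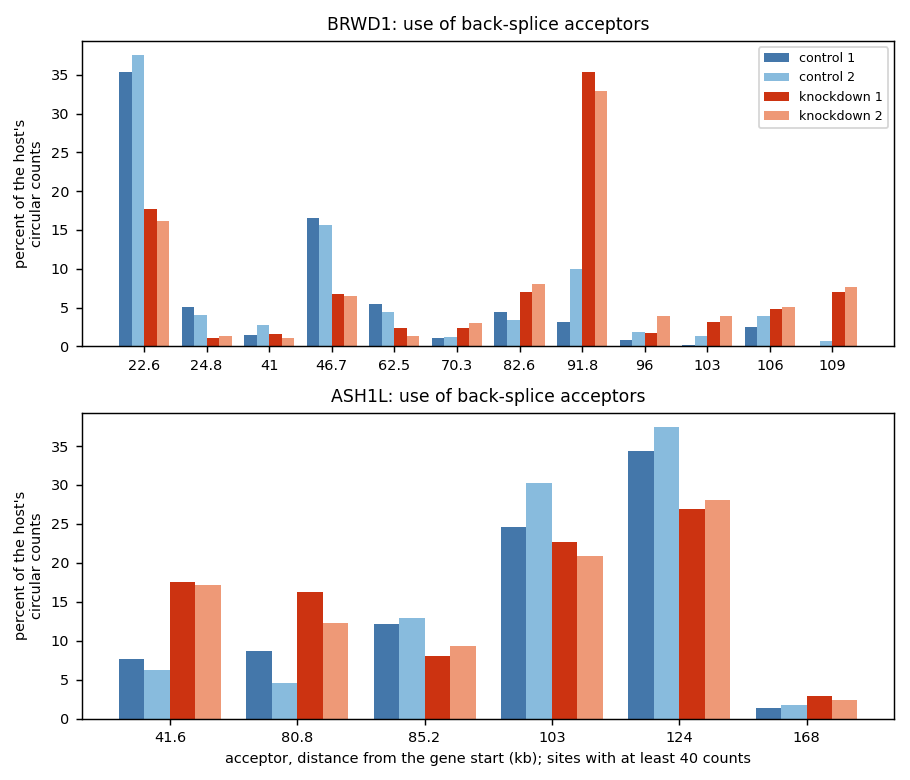
Bars give the percent of a host's circular counts in each library that used an acceptor, for acceptors with at least 40 counts ordered by distance from the gene start in kb. In BRWD1 the site at 22.6 kb goes from 35.4% and 37.5% to 17.7% and 16.1% and the site at 91.8 kb goes from 3.13% and 10% to 35.3% and 32.9%; in ASH1L the site at 41.6 kb goes from 7.59% and 6.19% to 17.6% and 17.2%.

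CHD9, which did not pass the test of circle use (edgeR adjusted p = 0.28), had sites with a larger share in both knockdowns as well. Its acceptor 53235185 on chromosome 16, 180 kb from the gene start, had 7, 25, 48 and 52 counts, its donor 53254605 had 3, 13, 27 and 27, and the 8-exon circle chr16:53235185-53254605 had 3, 2, 24 and 24 (log2 fold change 3.76 ± 0.62, edgeR adjusted p = 0.103). The share of CHD9 counts at its leading acceptor, 53141179, was 41.8%, 42.5%, 42.8% and 42.8%.

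In structure the members' circles were exonic for 93.9% of those with at least 10 counts, against 86.5% of all such circles. Their median was 7 exons, the same as for all circles, and their median length was 1397 nt against 1179 nt. Splice motifs of the AG-GT kind flanked 96.7% of them and 95.4% of all circles. Circles above 4000 nt made up 6.47% of exonic member circles and 3.05% of all exonic circles, and held 5.82%, 5.71%, 11.7% and 7.62% of the members' exonic counts by library, beside 2.4%, 2.86%, 5.51% and 3.7% over all hosts. Both knockdowns were thus above both controls in the members and in all hosts alike. Single exons made up 20 member circles, between 279 nt in BAZ1A and 4564 nt in ASH1L. That is 4.62% of exonic member circles with at least 10 counts, beside 6.97% of all such circles. Single-exon circles of any count held 16.1%, 13.6%, 13.6% and 13.7% of the members' exonic counts. Over all hosts they held 16.6%, 11.7%, 14.4% and 14.3%.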

How the data were processed

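Circular RNA was copied from total RNA with Induro reverse transcriptase, amplified with phi29 polymerase and read on a nanopore sequencer, per the labels' protocols. The deposited raw counts are whole numbers, 1 row per back splice with isoforms collapsed, and CIRI-long is named in each row, per the file headers and columns. The submitters' processing notes name GRCh38.p14 and DESeq2 without a role; version, base caller, aligner and filters are not given in the sources used here. Circle length and other annotation are the deposited table's own. Exon numbers are those of the first isoform listed, and 29.9% of member circles with at least 10 counts listed more than 1. A second deposited table, named CPM, sums to 100000 per library and was not used. Coordinates count from 1.

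Counts were summed per host gene for every gene of the table. Host genes and circles with at least 10 counts over 4 libraries were tested with edgeR 4.0.16 (R 4.3.3) by glmQLFit and glmQLFTest, TMM, library totals of the whole table, group as the only term and Benjamini-Hochberg adjustment at 0.05, after a check on simulated counts. Standard errors came from the F statistic. DESeq2 1.42.0 and limma 3.58.1 served as alternatives. P-values of single values cannot go below 0.333 in an exact permutation test of 2 against 2, so none was used. Levels are counts per 100000. Distances from a gene start use the RefSeq gene table of GRCh38.p14.

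Named in full were the 10 members and 10 member circles with the most counts, the 5 higher and 5 lower of each with the smallest p, members past a threshold and the leading SMARCA5 circle; other circles and sites of the same hosts were chosen after their values were seen. The members and lists were chosen with earlier results of these data known. CA repeats beside back splices were planned and not analysed here, since no genome sequence was used.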

Additional observations from a re-analysis of the deposited data

How the results depend on the processing

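With 2 libraries per group and unlike controls, adjusted calls depended on the fit. Of members called as host genes (0 in edgeR as reported), DESeq2, limma voom, no count filter and the replicate block gave 2 each, and 5 counts in each of 2 libraries, at least 40 counts and rows naming 1 gene gave 1 each; leaving out 1 library gave 0 to 22. SUZ12 was called in each of these settings that called any member. The count at an unadjusted p under 0.05 (8) was 5 with DESeq2 and 1 to 26 with 1 library left out. Member circles called (0) numbered 10 with DESeq2, 2 with limma voom, 5 without a filter, 20 with 5 counts in each of 2 libraries, 5 with at least 40 counts, 22 with the replicate block, 3 for exon circles alone and 0 to 110 with 1 library left out. Members called for circle use (2) were 7 with the replicate block and 0 to 21 with 1 library left out. The members' share of counts differed by -0.119 percentage points, and by 0.0195 and -0.258 within replicate numbers 1 and 2.

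The replicate numbers were taken as names, because the deviations from the group means correlated between equal numbers at only 0.0798 (host genes) and 0.0706 (circles). The log2 fold changes of ASH1L, KMT2C, BPTF and KMT2E (0.12, -0.17, 0.34 and -0.28 as reported) changed sign in some settings. ASH1L was -0.17 with library-size scaling. With 1 library left out ASH1L ranged from -0.14 to 0.53, KMT2C from -0.27 to 0.05, BPTF from -0.09 to 1.06 and KMT2E from -0.79 to 0.62. In each of them the lowest value came without control 1 and the highest without control 2. Apart from these genes, the 21 host genes and 18 circles named by rule kept their direction in every setting run. The cause of these differences was not tested.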
